A study of Mus musculus with 2 samples.

Results

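The Hox genes of the 4 mouse clusters were followed in kidney RNA of 2-month-old mice with and without *Cnnm2*. Members were the gene probes whose name was Hox with the cluster letter (a, b, c or d) and a number and nothing else, and 39 such genes with 44 probes were found among 31829 gene names with 39429 probes. The knockout group was Cnnm2fl/fl;Six2-Cre and the control group was Cnnm2+/+;Six2-Cre, so both groups carried the Six2-Cre transgene, in which Cre joined to GFP is made by cells of the kidney in the embryo, and the deletion was limited to those cells and their descendants. *Cnnm2* is known for its part in magnesium transport. Each of the 2 arrays held both genotypes in 2 colours. The knockout RNA carried Cy5 on array 1 and Cy3 on array 2, and the control RNA carried the other dye.

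How many mice gave each RNA, and whether both arrays carried the same RNA, is not given in the sources used here. Both arrays together were therefore taken as 1 replicate per genotype, the genotypes were compared by a rule of size, with tests over the arrays given only among the alternatives, and every SD below is that of the 2 arrays, which covers labeling and hybridization if they carried the same RNA. Of 43020 gene spots on each array, 62.6% to 68.0% were well above background in a channel and 0 were saturated. The number of arrays limits the precision. The log2 ratio of knockout over control for *Cnnm2*, the deleted gene, was -2.88 on array 1 and -2.46 on array 2 (mean -2.67 ± 0.30, SD). Kidney markers were present, as the label says, with all 10 nephron markers and all 11 collecting duct markers measured.

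Hox genes encode homeodomain transcription factors that give cells their position along the body axis. In each cluster the genes lie in a row on one chromosome, and their order follows the order in which they are used from head to tail, a property known as collinearity. Genes with the same number in different clusters are paralogues and form a paralogue group. Hox proteins bind DNA together with cofactors of the TALE class (Pbx, Meis and Pknox). In the kidney, the group 11 genes are known for their role in the metanephric mesenchyme, where they act with *Eya1* and *Pax2*. *Hoxb7* is known for its use in the ureteric bud and the collecting duct that comes from it.

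The arrays read each gene through probes of 60 bases. Some probes that lie in the coding sequence are shown here, because their genes are described below and because they show parts of a Hox protein that the probes read. In the probe of *Hoxc11*, the capitals mark codons of the tryptophan, phenylalanine, glutamine and asparagine (its first bases) in the recognition helix of the homeodomain. In the *Hoxa6* probe, they mark the codons of the tyrosine, proline, tryptophan and methionine motif through which Hox proteins contact Pbx. In the second *Hoxd11* probe, they mark the stop codon. The sequences are those of the deposited scanner files, 5′ to 3′.
Hoxc11: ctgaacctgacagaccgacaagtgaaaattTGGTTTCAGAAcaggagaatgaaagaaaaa
Hoxa6: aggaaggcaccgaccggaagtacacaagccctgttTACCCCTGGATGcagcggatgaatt
Hoxd11: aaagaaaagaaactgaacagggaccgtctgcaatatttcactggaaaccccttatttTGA
On the mm9 build these probes lie at chr15:102787022-102787081 on the plus strand (*Hoxc11*), chr6:52158194-52158253 on the minus strand (*Hoxa6*) and chr2:74522136-74522195 on the plus strand (*Hoxd11*). Of the 44 probes, that of *Hoxa6* was the 1 with the codons of the Pbx contact motif, searched with their synonymous bases on the strand of the probe. The homeodomain codons marked in *Hoxc11*, searched in the same way, were found in 2 of the 44 probes, and the other probe is not shown. The longest run of bases shared by probes of different Hox genes was 11. Probes were compared with each other only, so matches of a probe to transcripts of other Hox genes were not measured.

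Most Hox genes were present in kidney RNA of both genotypes. The scanner software called 30 of the 39 genes (76.9%) well above background in all 4 channels, that is for each genotype on each array, against 59.5% of the 31821 gene names with usable spots. The share was 10 of 11 in the Hoxa cluster on chromosome 6, 8 of 10 in the Hoxb cluster on chromosome 11, 6 of 9 in the Hoxc cluster on chromosome 15 and 6 of 9 in the Hoxd cluster on chromosome 2. By paralogue group, genes well above background were found up to group 11 and not beyond it. In group 1, 1 of 3 genes was well above background in all 4 channels. From group 2 to group 11, 29 of 30 genes were well above background. In groups 12 and 13, at the end of the clusters used for the tail, the urogenital outlets and the limb tips, none of 6 genes was.

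The genes not well above background were *Hoxb1*, *Hoxd1*, *Hoxc8* alone of group 8, both genes of group 12 (*Hoxc12* and *Hoxd12*), and all 4 of group 13 (*Hoxa13*, *Hoxb13*, *Hoxc13* and *Hoxd13*). In 8 of these 9 genes, no channel of either array was well above background. For *Hoxc8*, only the control channel of array 2 was, at a processed signal of 10.3, while its other signals were 9.91 and 5.70 in the knockout and 6.96 in the control on array 1. Over the 9 genes, processed signals ranged from 1.88 to 10.3, and over the other 30 genes from 23.7 to 9783. Both genotypes gave the same list of 30 genes, and no ratio is drawn for the remaining 9.

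**Figure D1:**
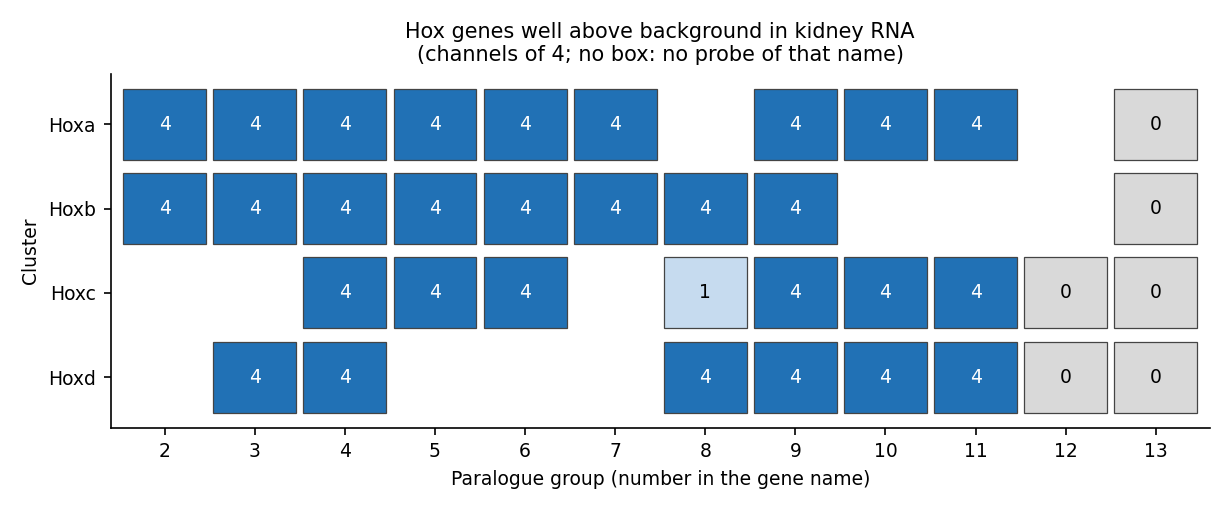
Hox genes of groups 2 to 13 by cluster (rows) and paralogue group (columns), with the number of the 4 channels (2 genotypes on 2 arrays) in which the brightest probe of the gene was well above background. All 4 channels passed for 29 of the 30 genes of groups 2 to 11 and for none of groups 12 and 13. Group 1, where 1 of 3 genes passed, is not drawn.

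**Figure D2:**
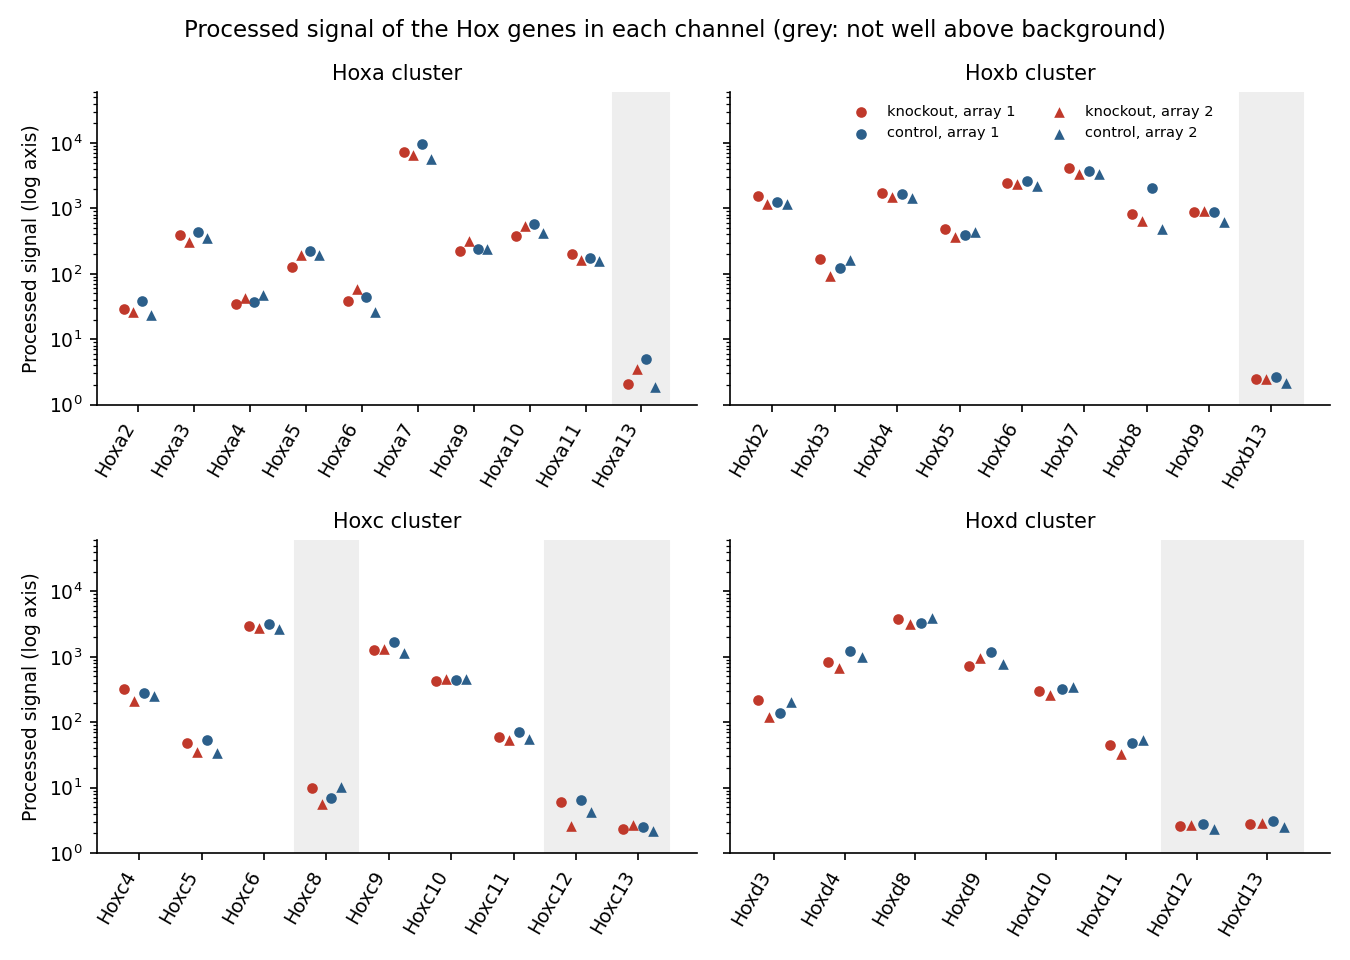
Processed signal (log axis, arbitrary units of the scanner) of the brightest probe of each of the 36 Hox genes of groups 2 to 13 in each channel, by cluster and paralogue group, with circles for array 1, triangles for array 2, red for knockout and blue for control. The 29 genes well above background in both genotypes lie between 23.7 and 9783 and the 7 genes on grey between 1.88 and 10.3; signals of different probes are not on 1 scale, so heights are to be compared within a gene only.

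No Hox gene passed the rule of size between the genotypes. A gene was counted as changed where its log2 ratio of knockout over control averaged 1 or more in size, which is 2-fold, and both arrays had the same sign. Of the 30 Hox genes measured, 0 were higher and 0 were lower, against 0.315% of all 19707 genes measured as higher and 0.284% as lower. At these rates a list of 30 genes would hold few or no such genes. The median log2 ratio was -0.08 over the Hox genes and -0.01 over all genes, and the means ranged from -0.57 for *Hoxd4* to 0.49 for *Hoxa6*. With each array alone, the median over Hox genes was -0.12 on array 1 and 0.02 on array 2, where *Hoxc8* also counted as measured, so its sign turned with the array. With normexp background correction and loess normalization of both arrays it was -0.01. Kidney RNA is a mixture, and fewer cells of a type cannot be told apart from less RNA per cell.

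By cluster, the median log2 ratio was -0.12 for Hoxa, 0.05 for Hoxb, -0.06 for Hoxc and -0.22 for Hoxd. Means lay below 0 for 21 of the 30 Hox genes and for 10316 of all 19707 genes measured. Those of all 6 Hoxc and all 6 Hoxd genes lay below 0, although the means of *Hoxc4*, *Hoxc10* and *Hoxd3* turned above 0 with normexp and loess. In the Hoxb cluster, 6 of 8 means lay above 0, and that of *Hoxb3* turned above 0 as well with normexp and loess. Along the clusters, the median was -0.10 for groups 1 to 4 (0.0033 with normexp and loess), -0.04 for groups 5 to 8 and -0.11 for groups 9 to 13. With normexp and loess, the cluster medians were -0.02 for Hoxa, 0.08 for Hoxb, -0.01 for Hoxc and -0.08 for Hoxd, and those of groups 5 to 8 and 9 to 13 were -0.02 and -0.03. With no filter on dim probes the Hoxd median was -0.05. The median of each array apart was -0.28 on array 1 and 0.17 on array 2 for Hoxa, and -0.11 and -0.48 for Hoxd. Taken in this way, the SD of a median between the arrays was 0.32 for Hoxa, 0.07 for Hoxb, 0.11 for Hoxc and 0.27 for Hoxd, and 0.11, 0.13 and 0.19 for the 3 sets of groups, and each median was smaller in size than its own SD. For single genes, the median SD of the arrays was 0.36 over the Hox genes and 0.30 over all genes.

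**Figure D3:**
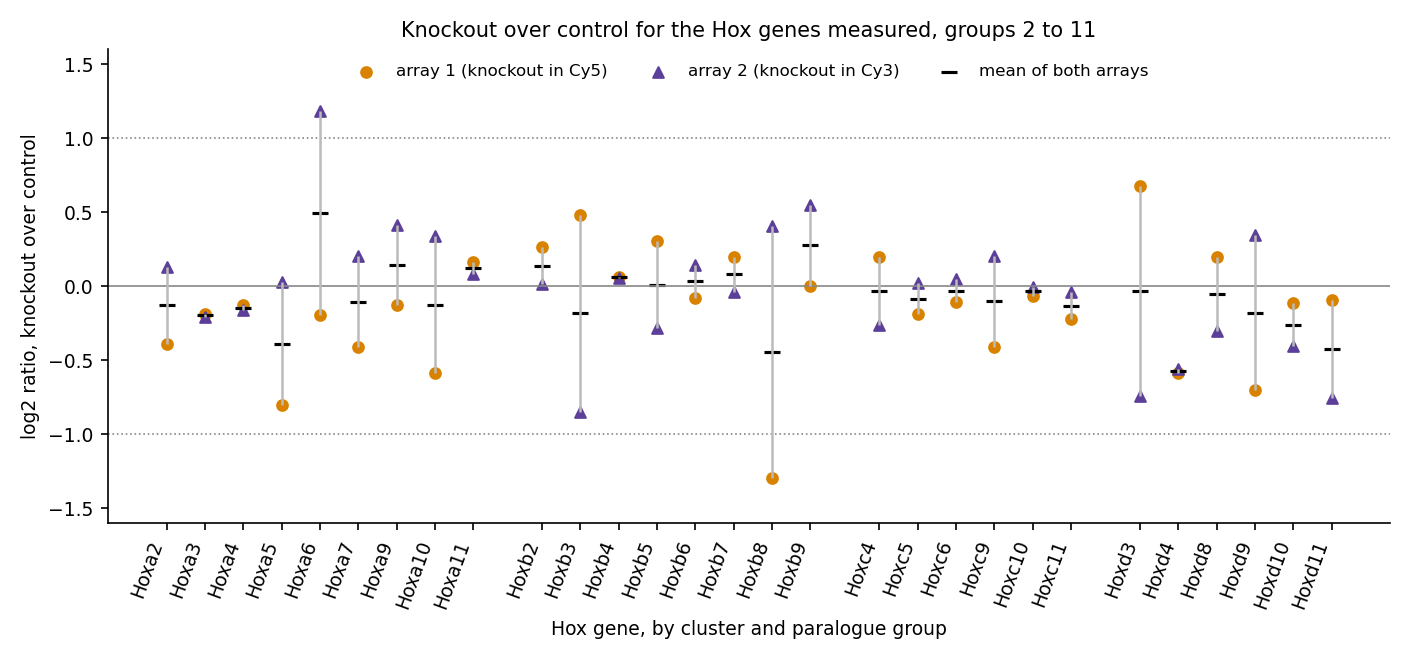
Log2 ratio of knockout over control (vertical axis) on array 1 (circles) and array 2 (triangles) and their mean (bars) for the 29 Hox genes measured in groups 2 to 11, by cluster and paralogue group; dotted lines mark 2-fold. No mean reaches a dotted line, *Hoxd4* is lowest at -0.57 with both arrays close together, and *Hoxb8* on array 1 and *Hoxa6* on array 2 are the only points beyond 2-fold.

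For most Hox genes the ratio changed sign when the dyes were exchanged. The sign was the same on both arrays for 11 of 30 Hox genes (36.7%), against 27.7% of all genes. *Hoxa11*, *Hoxb2*, *Hoxb4* and *Hoxb9* were higher in the knockout channel on both arrays, and *Hoxa3*, *Hoxa4*, *Hoxc10*, *Hoxc11*, *Hoxd4*, *Hoxd10* and *Hoxd11* were lower on both. Another 13 Hox genes (43.3%) were brighter in Cy3 on both arrays, whichever genotype carried it, against 33.6% of all genes, and 6 were brighter in Cy5 on both arrays, against 38.7%. In the Hoxa cluster 7 of 10 genes were brighter in Cy3 on both arrays and 0 in Cy5. With background-subtracted signals, which shift the dyes of all genes, 10 Hox genes were brighter in Cy3 and 11 in Cy5, against 23.7% and 52.3% of all genes.

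Across the 30 Hox genes, the log2 ratios of the arrays had a Pearson's r of -0.45 and a Spearman's rho of -0.51, and across all 19707 genes these were -0.51 and -0.56. Genes are not independent replicates, and the dyes are shared by all points. The size of the mean exceeded the SD of the arrays for 6 of 30 Hox genes, near the 20.7% of all genes. These were *Hoxa3*, *Hoxa4*, *Hoxa11*, *Hoxb4*, *Hoxd4* and *Hoxd10*. By position, the arrays had the same sign for 5 of 10 genes in groups 1 to 4, 0 of 10 in groups 5 to 8, and 6 of 10 in groups 9 to 13.

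**Figure D4:**
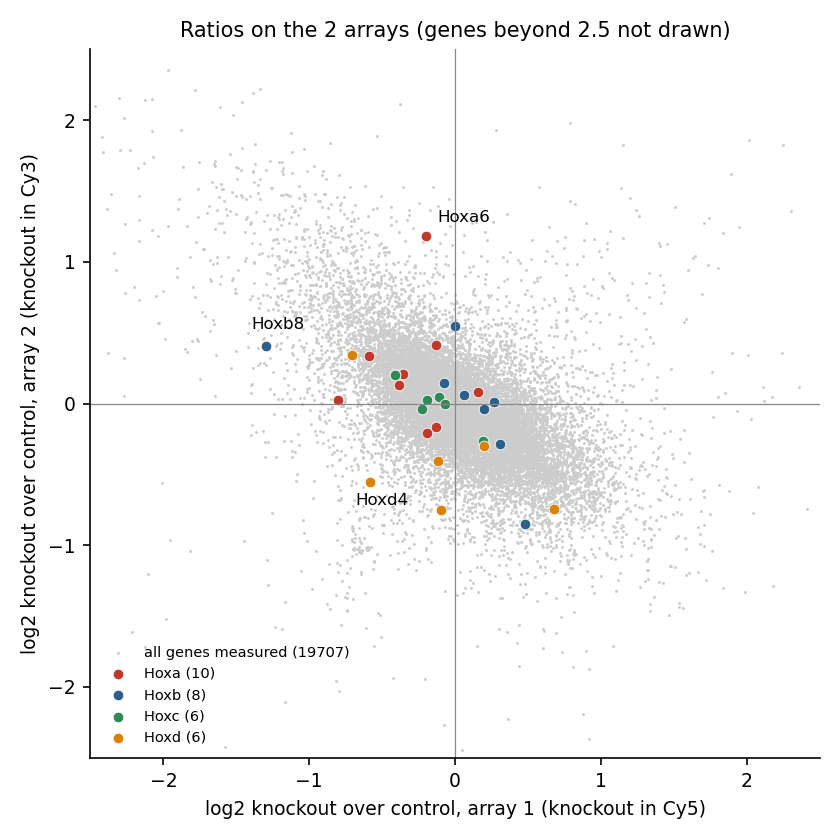
Log2 ratio of knockout over control on array 1 (horizontal) against array 2 (vertical) for all 19707 genes measured (grey) and the 30 Hox genes (coloured by cluster); 58 genes lie beyond the axes. The cloud runs from upper left to lower right, 19 of the 30 Hox genes lie in the quadrants where the arrays disagree, and *Hoxd4* lies at -0.58 and -0.56 where both are below 0.

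*Hoxd4*, a group 4 gene known for its use in the hindbrain and neck, gave the lowest mean of the Hox genes with the arrays close together. Its processed signal was 823 for the knockout and 1234 for the control on array 1, and 668 and 982 on array 2. Both control signals lay above both knockout signals. The log2 ratio was -0.58 and -0.56, with a mean of -0.57 ± 0.02 (SD), and the control signal was 1.49 times that of the knockout. By a smaller rule of size chosen after its values were seen, a mean of 0.5 or more in size and the same sign on both arrays, *Hoxd4* was the only Hox gene that passed, against 1.38% of all genes as lower and 1.28% as higher. With normexp and loess its mean was -0.45 and no Hox gene passed, and with loess alone its mean was -0.53. Both moved by more than the SD of the arrays. With background-subtracted signals the arrays lay further apart, at -0.45 and -0.66.

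The probe of *Hoxd4* (A_51_P260265) spans chr2:74566866-74566925 on mm9. In RefSeq, on another build (GRCm38.p6), the span of *Hoxd4* from 74721978 to 74729160 on chromosome 2 lies inside that of *Hoxd3*. The span of *Hoxd3* runs from 74711993 to 74748271, and both genes are of the plus strand. Gene spans were compared and not exons, so whether a *Hoxd3* transcript carries sequence of *Hoxd4* was not determined. The ratio of the *Hoxd3* probe changed sign between the arrays. Its signals were 222 and 139 in knockout and control on array 1 and 121 and 202 on array 2, so the log2 ratio was 0.68 on one array and -0.74 on the other, and -0.03 on average. In RefSeq, the spans of *Hoxd11* and *Hoxd10*, of *Hoxb3* and *Hoxb4*, and of *Hoxa3* with *Hoxa4*, *Hoxa5* and *Hoxa6* overlap as well. The part of these overlaps in the ratios, that of *Hoxd4* included, was not tested.

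*Hoxb7*, the gene of the ureteric bud and collecting duct, had close signals in both genotypes. They were 4198 and 3664 in knockout and control on array 1, and 3314 and 3401 on array 2. The genotypes overlapped. Its log2 ratio was 0.20 and -0.04, with a mean of 0.08 ± 0.17 (SD). Over the 11 collecting duct markers, the median log2 ratio was -0.15 and 0 were counted as changed.

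The group 11 genes, which specify the metanephric mesenchyme in the embryo, each kept their sign on both arrays, but not the same direction as each other. *Hoxa11* had signals of 197 and 177 in knockout and control on array 1, and 163 and 154 on array 2, a mean log2 ratio of 0.12 ± 0.06 (SD). Its probe was printed 10 times on each array, and the log2 ratio of the spots was 0.16 ± 0.07 on array 1 and 0.08 ± 0.11 on array 2 (SD of spots). *Hoxc11* had signals of 60.3 and 70.4 in knockout and control on array 1 and 53.2 and 54.6 on array 2, a mean of -0.13 ± 0.13 (-0.01 with normexp and loess). The *Hoxd11* probe with the higher signal had 45.3 and 48.4 on array 1 and 32.2 and 54.2 on array 2, a mean of -0.42 ± 0.46 (-0.05 with normexp and loess). Its control signals lay above its knockout signals, and the gap was small on array 1 and large on array 2. The other *Hoxd11* probe, which ends at the stop codon, disagreed in direction. Its signals were 33.5 and 30.3 on array 1 and 36.7 and 36.4 on array 2, with a mean log2 ratio of 0.08 ± 0.09, so that no direction is given for *Hoxd11*.

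The group 10 genes, known with group 11 for the lower spine and the hind limb, had means below 0, except that *Hoxc10* turned to 0.01 with normexp and loess. *Hoxa10* had signals of 380 and 571 in knockout and control on array 1 and 534 and 423 on array 2, a log2 ratio of -0.59 and 0.34 (mean -0.13 ± 0.65, SD, or -0.07 with normexp and loess), and it was brighter in Cy3 on both arrays. *Hoxc10* hardly differed, with 423 and 444 on array 1, 463 and 464 on array 2, and a mean of -0.04 ± 0.05. *Hoxd10* had signals of 299 and 324 on array 1 and 259 and 344 on array 2. Both of its control signals exceeded the knockout signal of the same array, and its mean was -0.26 ± 0.21 (-0.12 with normexp and loess).

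Group 9, at the border of trunk and lower body, has a member in every cluster. *Hoxa9* had signals of 219 and 240 in knockout and control on array 1, and 317 and 238 on array 2 (mean 0.14 ± 0.39, SD). *Hoxb9* had 888 and 888 on array 1 and 908 and 621 on array 2, so that its mean of 0.28 ± 0.39 came from array 2. *Hoxc9* had 1277 and 1698 on array 1 and 1316 and 1142 on array 2, a mean of -0.10 ± 0.44. In *Hoxd9* the arrays went opposite ways. Its signals were 715 and 1165 on array 1 and 971 and 765 on array 2, a log2 ratio of -0.70 and 0.34 (mean -0.18 ± 0.74). For all 4 genes the mean was smaller than the SD of the arrays.

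A pair of Hox genes passed 2-fold on one array alone, 1 of 30 measured on array 1 and 1 of 31 on array 2. Of all 21547 genes measured on array 1, 1097 were higher and 633 lower by that size. On array 2 these were 576 and 882 of 21318. *Hoxb8*, a group 8 gene also known in blood-forming cells, had signals of 824 and 2028 in knockout and control on array 1, and 637 and 481 on array 2. The control signal of array 1 stood apart from the other 3. The log2 ratios were thus -1.30 and 0.40, with a mean of -0.45. *Hoxa6*, whose probe is printed above, had 38.2 and 43.8 on array 1 and 58.1 and 25.6 on array 2. Its log2 ratio was -0.20 and 1.18 (mean 0.49 ± 0.98), and its mean was 0.07 under the lowest of the other settings. In neither gene did the arrays have the same sign.

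The other members named for their rank were *Hoxa5* and *Hoxb2*. *Hoxa5*, a group 5 gene known from lung and airway formation, had signals of 126 and 220 in knockout and control on array 1 and 194 and 190 on array 2 (mean -0.39 ± 0.59, SD, or -0.18 with normexp and loess). *Hoxb2*, a group 2 gene of the hindbrain, had 1529 and 1272 on array 1 and 1160 and 1151 on array 2 (mean 0.14 ± 0.18). The remaining 14 Hox genes had means from -0.20 (*Hoxa3*) to 0.06 (*Hoxb4*), of which 11 lay below 0 and 3 above, with a median SD of 0.34 and the same sign on both arrays in 3.

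Of these 14 genes, 3 had a mean larger than the SD of the arrays, and they are named for that, after their values were seen. *Hoxa3*, a group 3 gene of the throat organs and neck, had signals of 388 and 443 in knockout and control on array 1 and 305 and 352 on array 2 (mean -0.20 ± 0.01, SD). *Hoxa4*, of group 4, had 34.1 and 37.3 on array 1 and 42.6 and 47.7 on array 2 (mean -0.15 ± 0.02). *Hoxb4*, a group 4 gene also known in blood stem cells, had 1733 and 1659 on array 1 and 1498 and 1440 on array 2 (mean 0.061 ± 0.0041). In each of the 3 genes the knockout signals overlapped the control signals across arrays, and the genotypes separated only within an array. With normexp and loess, *Hoxa3*, *Hoxa4* and *Hoxb4* moved to -0.09, -0.03 and 0.08, each by more than the SD of the arrays, and all 3 moved by more than it with background-subtracted signals and with loess alone as well.

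Where a Hox gene had several probes, they did not always give the same picture. *Hoxb3*, a group 3 gene of the hindbrain and neck, has a brighter probe with log2 ratios of 0.48 and -0.85 on arrays 1 and 2, while its other probe gave -0.52 and 0.19. The dyes thus went opposite ways in the 2 probes, and the means were close, at -0.18 and -0.16. In the annotation of the arrays, a probe named *Hoxb3* lists a *Hoxd3* transcript. The part of this in the difference between the probes was not tested. Both *Hoxa9* probes had means above 0, at 0.14 and 0.09. Both probes of *Hoxa13* were not well above background in any channel.

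Other transcripts of the clusters were read by 17 further gene names whose probes lie between the first and the last Hox probe of a cluster. Of these, 11 were measured, 0 were counted as changed, and their median log2 ratio was -0.12. *Hoxa11as*, the antisense transcript next to *Hoxa11*, had signals of 374 and 446 in knockout and control on array 1 and 326 and 316 on array 2 (mean -0.11 ± 0.21, SD). A probe reads 1 strand, and the positions of the files put the *Hoxa11as* probe on the plus strand and the *Hoxa11* probe on the minus strand. In the RefSeq table, 6 genes for microRNAs lie inside the clusters. These are *Mir10a* and *Mir10b* near the group 4 genes, *Mir196a-1*, *Mir196a-2* and *Mir196b* near group 9, and *Mir615* within *Hoxc5*, and none has a probe named for it on the arrays.

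The TALE cofactors of Hox proteins were present and close in both genotypes. Of 9 genes, 8 were measured and *Pbx4* was not, 0 were counted as changed, and the median log2 ratio was -0.08 (range -0.17 to 0.14). Only *Pknox2* had the same sign on both arrays. Chromatin regulators that keep Hox genes on or off, of the Polycomb and Trithorax classes, were measured for 16 of 18 genes on the arrays. Of these 0 were counted as changed, with a median of 0.01 and a range of -0.22 to 0.19. *Mll1*, which keeps Hox genes active, and *Cbx7*, a Polycomb subunit, were not measured. Of the ParaHox and Cdx genes, the sister genes and upstream regulators of the clusters, 0 of 6 were measured.

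Regulators of kidney development listed beside the Hox genes were measured for 13 of 16 genes and 0 were counted as changed. The median log2 ratio of the 13 was -0.09. Over the 12 of these well above background in every channel, means ranged from -0.36 (*Wt1*) to 0.33 (*Osr1*). *Six2*, the gene whose promoter names the Cre line, was not measured in either genotype, nor was *Ret*. *Gdnf*, the signal from the mesenchyme to the ureteric bud, passed the background limit on both arrays in 1 genotype only, with signals of 10.1 and 12.6 in knockout and control on array 1 and 6.78 and 13.8 on array 2.

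Marker lists of kidney cells and of tissues near the kidney were set beside the Hox genes. Medians were -0.11 for the nephron (10 of 10 measured), -0.15 for the collecting duct (11 of 11), -0.14 for stroma and vessels (8 of 8), 0.00 for leukocytes (8 of 9), -0.21 for red blood cells (3 of 3), -0.07 for fat (4 of 5) and -0.05 for the adrenal (4 of 8). The nephron list held 1 gene counted as changed, *Pvalb*, which was lower. The ureter and urothelium markers stood apart. All 6 were higher in the knockout channel on both arrays, against 2375 of all 19707 genes measured. Their means ran from 0.36 to 0.87 with a median of 0.58, although 0 passed the rule of size. This list, like the others, was chosen with earlier results of these data known. All 6 were also higher on both arrays with the other background corrections, where the median was 0.29 to 0.60. Their part in the Hox ratios was not tested.

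**Figure D5:**
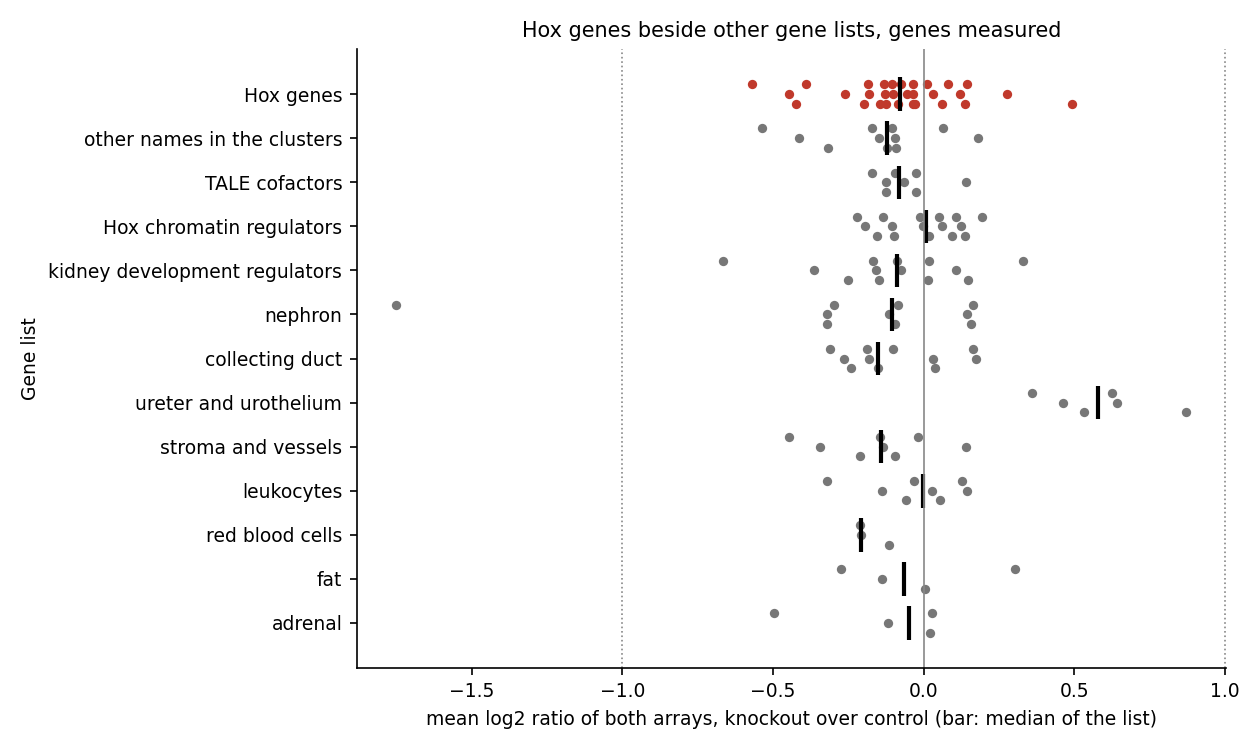
Mean log2 ratio of both arrays, knockout over control (horizontal axis), for each gene measured of the Hox genes (red) and of the other lists (grey), with the median of a list as a bar and 2-fold as dotted lines. The Hox genes lie around a median of -0.08, no Hox gene reaches 2-fold, *Pvalb* at -1.75 is the only point beyond it, and the ureter and urothelium markers are the list whose members all lie above 0.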

How the data were processed

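RNA of knockout and control kidneys was measured on 2 arrays with exchanged dyes. The scanner files come from Agilent Feature Extraction, whose version is 10.7.3.1 in the file headers and 10.5.1.1 in the submitters' processing notes. The intensity that the authors deposited had been corrected there for background and dye bias, array by array. The deposited log10 ratio, in the scanner files and in the value table, came from the same signals. Each table value lay within 0.00492 of the scanner's log10 ratio of Cy5 over Cy3 on array 1 and, with the sign turned, within 0.00483 on array 2, so the table gives knockout over control on both. Positions in the files are on mm9, and RefSeq tables are on GRCm38.p6.

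Here, control spots and spots that the software marked (141 and 175) were left out, processed signals were taken to log2, spots of a probe were averaged, and the brightest probe by mean log2 signal stood for its gene. A gene was measured where at least 1 genotype was well above background in both of its channels. The exchange of dyes was taken as technical, with 1 replicate per genotype, so a rule of size stood in place of a test. The rule was also run on simulated data with planted changes larger than its threshold, so that run does not bear on smaller changes. The members and lists were chosen with earlier results of these data known. Values are given for *Hoxb7*, groups 9 to 11, the 5 highest and 5 lowest means, members that passed under an alternative, members whose probes disagreed and *Cnnm2*. Others were named after their values were seen, and some values are not reported here.

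Alternatives were normexp (offset of 50) with loess, median-centred signals after background subtraction (floor of 1), loess without background correction, the log10 ratios as deposited, other filters on dim probes, marked spots kept, the median over probes, each array alone, 2-fold on each array, the methods' t-test (threshold 0.1) and limma. Python 3.11.15 (numpy 2.4.6, pandas 2.3.3, scipy 1.17.1, matplotlib 3.10.9) and R 4.3.3 with limma 3.58.1 were used.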

Additional observations from a re-analysis of the deposited data

How the results depend on the processing

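The number of Hox genes well above background (30 to 31) and the counts of Hox genes by the rule of size held under the other settings that use both arrays, and the number with the same direction on both arrays ranged from 9 to 12 of those measured. With normexp and loess every median by cluster and position moved by over 1.5 times, though by less than its SD between the arrays, and that of groups 1 to 4 turned to 0.0033. The mean kept its sign under every setting for 26 of 30 Hox genes, each array alone not counted, and turned for *Hoxb3*, *Hoxc4*, *Hoxc10* and *Hoxd3*. For single arrays, the count of lower Hox genes ranged from 0 to 1 (*Hoxb8* on array 1). That of higher ones ranged from 0 to 1 (*Hoxa6* on array 2). All genes ranged from 576 to 1097 higher and 633 to 882 lower, of 21547 measured on array 1 and 21318 on array 2. Also for single arrays, the median ranged from -0.28 to 0.17 for Hoxa, 0.035 to 0.13 for Hoxb, -0.15 to -0.0027 for Hoxc and -0.48 to -0.11 for Hoxd, and from -0.18 to -0.03 for groups 1 to 4, -0.15 to 0.03 for groups 5 to 8 and -0.12 to 0.14 for groups 9 to 13. The counts over all genes, 62 higher and 56 lower, were 7 and 8 after normexp and loess. They were 12 and 12 after loess alone, 232 and 179 with no filter on dim probes, 37 and 27 with both genotypes well above background, 28 and 20 at 2-fold on each array, 22 and 14 by the methods' t-test, 0 and 0 by it after Benjamini-Hochberg adjustment, and 0 and 0 by limma with adjustment. With a mean of at least 0.5, added after seeing the data, they were 253 and 271, and the count of lower Hox genes was 1 (*Hoxd4*). At an unadjusted p under 0.05, the methods' t-test passed 486 of 19707 genes of any size (2.47%). Among them were 3 of 30 Hox genes, *Hoxa3*, *Hoxb4* and *Hoxd4*. At the same threshold limma passed 256 genes (1.3%) and 0 of 30 Hox genes. These p-values measure the spread of 2 arrays, which is not known to include the spread between mice. The cause of these differences was not tested. The t-test and limma already pair the genotypes within each array, and no further replicate block could be fitted. Signal over background is the limit here, and no ratio is given for the 9 genes not well above it.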

Other observations

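The RefSeq promoter table (GRCm38.p6) held 24 promoters for 22 of the 39 Hox genes, each from 250 bases before to 50 bases after a start. Counting the pair CG in the letters of each, Hox promoters held a median of 14.5, against 7 over all 32851 promoters in the table. The 5 promoters of Hox genes not well above background (*Hoxa13*, *Hoxb1*, *Hoxd1*, *Hoxd12* and *Hoxd13*) held 45, 10, 29, 13 and 37, with a median of 29, and the 19 promoters of Hox genes well above background held 4 to 29, with a median of 14. The count is a description of sequence, and methylation was not measured here.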
